A study of Mus musculus with 24 samples.

Results

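The genes described here are 44 genes that dividing cells use to copy and to separate their DNA. They were taken by name in 2 classes: 23 S-phase genes, which license, start and carry out DNA replication, and 21 mitotic genes, which condense chromosomes, build the spindle and drive the exit from mitosis. All 44 were found, with an adjusted p value, in each of the 3 tables that the authors deposited, which together list 25471 genes. The cells were sorted by flow cytometry from mouse embryonic brains, and their messenger RNA was sequenced in 24 libraries. Pericytes, the mural cells that wrap capillaries, were sampled at E11.5 and again at E13.5, each time with 4 controls and 4 mutants. Endothelial cells, which line the vessels, were sampled at E13.5 with 5 controls and 3 mutants. Controls were Pdgfrb-Cre, Alk5(flox/+), Zs/+ and were labelled normal, and mutants were Pdgfrb-Cre, Alk5(flox/flox), Zs/+ and were labelled GMH-IVH. Every group thus carried the Cre driver and the green reporter, and the controls also carried 1 floxed copy of Alk5, the older name of the TGF-beta receptor gene Tgfbr1. Pdgfrb is active in pericytes and in other mesenchymal cells, and recombination in the sorted cells of either kind was not measured here. The stated purpose was to find which pericyte genes depend on ALK5 while brain vessels form.

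As background, a cell commits to division when cyclin-dependent kinases inactivate the retinoblastoma proteins and free E2F transcription factors, which switch on the genes of DNA replication. Origins are first licensed by loading the MCM helicase, then fired by CDC45 and the GINS complex, and copied by polymerases that a sliding clamp holds on the DNA. Genes of mitosis peak later and are driven by B-MYB and FOXM1 together with NF-Y, through a short promoter element called CHR and through CCAAT boxes. Inhibitor proteins of the CIP/KIP and INK4 families oppose the kinases, and TGF-beta signalling is known in many cell types to raise some of these inhibitors. In early vessels both pericytes and endothelial cells divide, and pericyte coverage grows with the vessel bed.

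The promoters of the 2 classes differed in sequence, and 8 are shown because they carry the elements named above or, for Rrm1 and Fen1, belong to the genes called below. They come from the RefSeq promoter table for build GRCm38.p6, in which 36 of the 44 genes were matched, 18 of each class. Mcm4, Gins1, Gins2, Ccne2, Gmnn, Ccna2, Aurkb and Tpx2 were not matched. Each line gives the 160 bases before the transcription start, 5′ to 3′ on the gene's own strand. Capitals mark an E2F word (TTTCCCGC, TTTCGCGC, TTTGCCGC or TTTGGCGC), a CHR word (TTTGAA or TTCGAA) or CCAAT, each searched on both strands. The first 4 are S-phase genes and the last 4 mitotic genes.
Mcm5 (chr8:75109349-75109508, plus strand): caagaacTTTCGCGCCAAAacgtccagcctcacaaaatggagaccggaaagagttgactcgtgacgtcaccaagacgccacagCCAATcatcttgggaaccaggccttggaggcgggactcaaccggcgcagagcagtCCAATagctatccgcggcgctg
Mcm6 (chr1:128359706-128359865, minus strand): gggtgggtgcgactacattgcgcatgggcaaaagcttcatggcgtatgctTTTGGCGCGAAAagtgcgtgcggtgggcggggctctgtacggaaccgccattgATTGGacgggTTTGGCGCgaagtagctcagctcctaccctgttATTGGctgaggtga
Rrm1 (chr7:102441535-102441694, plus strand): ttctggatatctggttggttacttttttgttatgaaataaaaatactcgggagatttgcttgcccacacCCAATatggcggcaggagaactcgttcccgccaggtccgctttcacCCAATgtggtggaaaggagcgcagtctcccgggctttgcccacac
Fen1 (chr19:10204394-10204553, minus strand): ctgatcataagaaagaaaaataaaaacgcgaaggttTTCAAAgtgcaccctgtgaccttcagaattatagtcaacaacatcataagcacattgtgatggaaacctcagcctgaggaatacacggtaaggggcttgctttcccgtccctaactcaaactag
Cdk1 (chr10:69352913-69353072, minus strand): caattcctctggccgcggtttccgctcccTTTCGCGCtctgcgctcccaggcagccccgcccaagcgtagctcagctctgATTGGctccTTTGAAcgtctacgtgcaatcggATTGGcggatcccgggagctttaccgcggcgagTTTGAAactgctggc
Cdc20 (chr4:118437344-118437503, minus strand): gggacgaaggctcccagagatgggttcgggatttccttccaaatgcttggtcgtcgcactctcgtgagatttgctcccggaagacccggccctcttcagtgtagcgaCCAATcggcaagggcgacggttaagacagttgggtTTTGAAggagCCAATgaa
Kif11 (chr19:37376222-37376381, plus strand): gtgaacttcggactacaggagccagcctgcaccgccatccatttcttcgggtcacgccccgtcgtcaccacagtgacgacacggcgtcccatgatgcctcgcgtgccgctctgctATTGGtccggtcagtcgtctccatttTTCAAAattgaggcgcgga
Ube2c (chr2:164769769-164769928, plus strand): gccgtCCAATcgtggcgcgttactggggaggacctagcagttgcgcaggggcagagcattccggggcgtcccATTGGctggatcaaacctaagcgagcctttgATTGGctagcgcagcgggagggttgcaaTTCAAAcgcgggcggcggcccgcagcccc

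In Mcm5 and in Mcm6, 2 E2F words overlapped on opposite strands, which gives the 12-base runs of capitals, and Mcm6 held another such word 47 bases before its start. Rrm1 and Fen1 held no E2F word of this spelling in the printed stretch. Rrm1 had 2 CCAAT boxes, and Fen1 had only a CHR word, 124 bases before its start. Cdc20, Kif11 and Ube2c showed the arrangement common among mitotic genes, with a CHR word within 29 bases of the start and CCAAT boxes nearby. Cdk1 was the mitotic gene with an E2F word beside its CHR and CCAAT elements.

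Over the whole window, from 250 bases before to 50 bases after the start, an E2F word stood in 8 of 18 S-phase promoters (44.4%) and in 1 of 18 mitotic promoters (5.56%). Of the 11469 genes tested in E11.5 pericytes that had a promoter in the table, 4.61% held one, and 2.61% of all 27025 genes in the table did. A CHR word stood in 14 mitotic promoters (77.8%) and in 4 S-phase promoters (22.2%), against 16.4% of tested genes and 21.7% of all genes. CCAAT was found in 16 mitotic promoters (88.9%) and 12 S-phase promoters (66.7%), against 43.3% of tested and 41.1% of all genes. All 14 mitotic promoters with a CHR word also held CCAAT, a pairing seen in 3 S-phase promoters and in 7.09% of tested genes. In the promoter of Mcm7 a CCAAT box shared its first base with an E2F word, after the start. Between 100 bases before the start and the start itself the shares were lower, with an E2F word in 1 S-phase and 0 mitotic promoters and a CHR word in 1 and 7. These matches describe letters in a window and not bound sites.

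The values used were the authors' group means of normalized read counts, called levels below, with the ratio of mutant to control and an adjusted p for each gene. Values per library were not analysed here, so the spread is given as the standard error (SE) of the log2 ratio implied by the authors' ratio and p, and whether the libraries of 2 groups overlap cannot be stated. A gene was called where the adjusted p was under 0.05. Of all tested genes, 3.35% were called in E11.5 pericytes (0.642% higher and 2.7% lower in mutants), 0.388% in E13.5 pericytes (0.224% higher and 0.164% lower) and 7.3% in E13.5 endothelial cells (5.11% higher and 2.19% lower). The floxed gene itself, Tgfbr1, was not called, with log2 ratios in the authors' deposited tables of 0.43, 0.03 and -0.11 (adjusted p = 0.399, 1.00 and 0.859). No source used here names its floxed exon, so a gene-level mean does not check the deletion. In the table for E13.5 pericytes Xist, which is made from the inactive X of females, stood at 36145 in controls and 5.73 in mutants, so the sex of the embryos and the genotype cannot be told apart there. Pola1 is the only X-linked gene of the 44. In control pericytes the pericyte markers summed to 14538 at E11.5 and 24688 at E13.5, with 11 of 12 tested. Fibroblast and meningeal markers summed to 101081 and 300998, and endothelial markers to 1250 and 3767. The tables were normalized separately, so these sums do not compare the stages. As scaled levels, defined below, pericyte markers stood at 951 at E11.5 and 972 at E13.5. Fibroblast and meningeal markers stood at 6609 and 11848, and endothelial markers at 81.7 and 148. In control endothelial cells all 12 endothelial markers were tested and summed to 152736, and pericyte markers to 2377. In bulk samples, fewer cells of a type and less RNA per cell cannot be told apart.

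In E11.5 pericytes every one of the 44 genes had a higher level in mutants than in controls, or 43 of the 44 with summed means set equal, and 2 of them, both S-phase genes, were called. Among all 19301 genes tested there, 49.6% had a positive log2 ratio and the median log2 ratio was -0.0044. The median log2 ratio was 0.44 over the S-phase genes, a ratio of 1.36, and 0.39 over the mitotic genes, a ratio of 1.31. Called as higher were 2 of 23 S-phase genes and 0 of 21 mitotic genes, against a background of 0.642%. Without adjustment, 19 of the 23 and 11 of the 21 had an authors' p under 0.05, as did 17.7% of all genes. The adjusted p came from DESeq2, and none of the 44 was called lower.

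**Figure D1:**
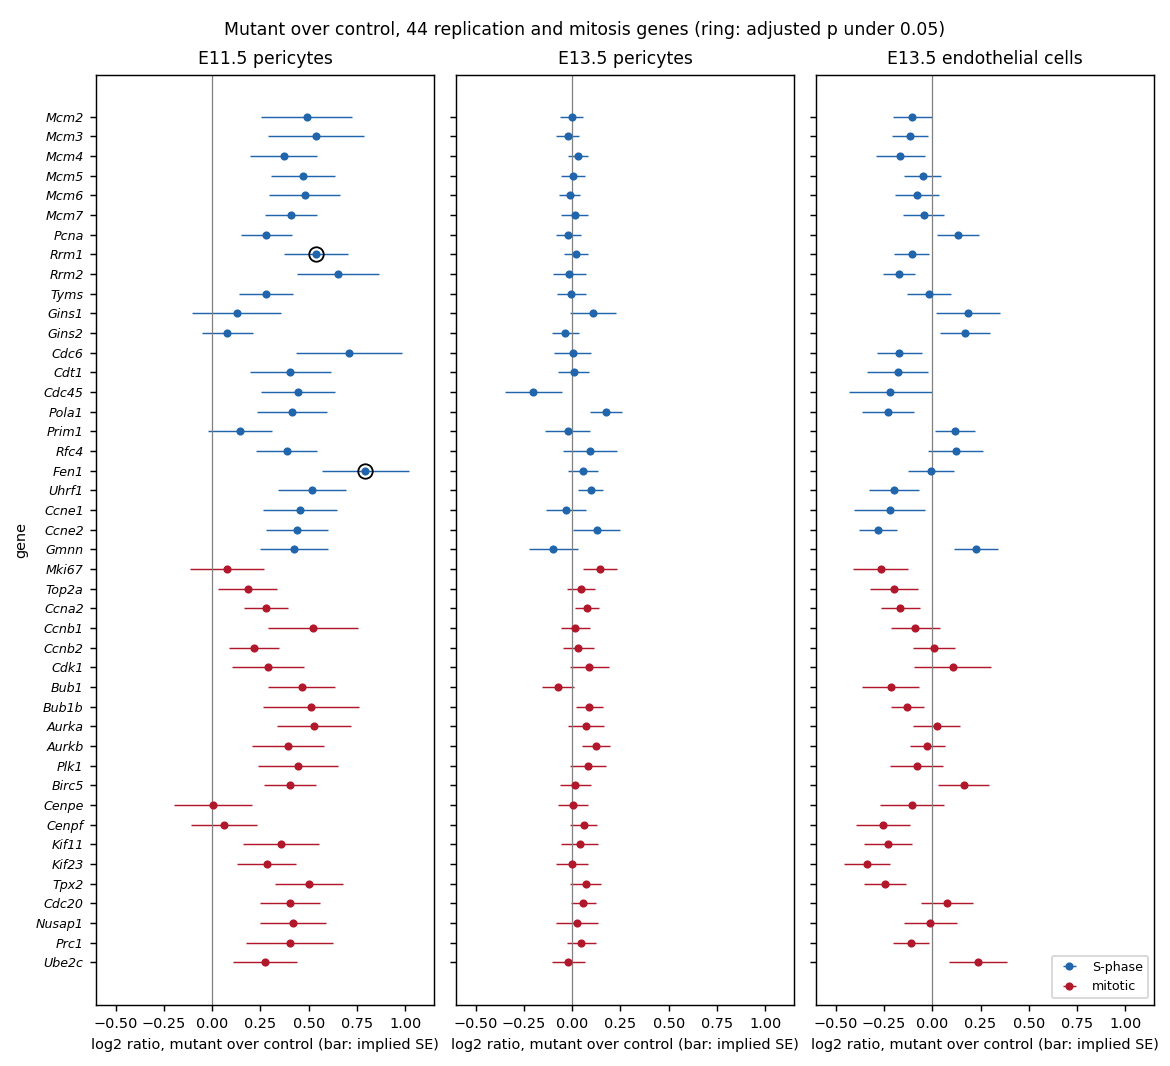
Log2 ratio of mutant over control for each of the 44 genes in the 3 comparisons, with bars for the implied SE, S-phase genes in blue and mitotic genes in red. All points lie right of 0 in E11.5 pericytes, where rings mark the 2 genes with an adjusted p under 0.05, Fen1 and Rrm1, while points lie close to 0 in E13.5 pericytes and mostly left of 0 in endothelial cells.

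Fen1 encodes the flap endonuclease that trims Okazaki fragments on the lagging strand. Its level rose from 2297 in controls to 3981 in mutants in the authors' deposited table, a log2 ratio of 0.79 (SE 0.22) with an adjusted p of 0.0201. Rrm1 encodes the large subunit of ribonucleotide reductase, which makes the deoxynucleotides for DNA synthesis. It rose from 2976 to 4318 in the same authors' deposited table, a log2 ratio of 0.54 (SE 0.17) with an adjusted p of 0.0440. These were the 2 genes inside the threshold. With the summed means of both groups set equal, the adjusted p was 0.0276 for Fen1 and 0.0655 for Rrm1, and with the spread of all genes rescaled to a standard normal neither was called. Just outside, in the authors' deposited table, lay Rrm2 (adjusted p = 0.0601), Mcm7 (0.0637), Birc5 (0.0661) and Uhrf1 (0.0706).

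The nucleotide supply genes had a median log2 ratio of 0.54. Rrm2, the small subunit of the same reductase, stood at 4559 in controls and 7154 in mutants in the authors' deposited table, a log2 ratio of 0.65 (SE 0.21). Tyms, which makes thymidylate, stood at 1593 and 1936 in the authors' deposited table, with an adjusted p of 0.266. In order of log2 ratio they were Rrm2, Rrm1 and Tyms, and the SE ranges of neighbours in that order overlapped.

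The 6 subunits of the MCM helicase, Mcm2 to Mcm7, lay close together, with ratios in the authors' deposited table from 1.29 for Mcm4 to 1.45 for Mcm3. All 6 had an unadjusted p under 0.05 and none was called. Mcm7 had the smallest adjusted p of the 6, with 1717 in controls and 2277 in mutants in the authors' deposited table, a log2 ratio of 0.41 (SE 0.13). Their summed level was 14721 in controls and 20252 in mutants, a ratio of 1.38. The licensing factors Cdc6 and Cdt1, which load the helicase, had log2 ratios of 0.71 (SE 0.27) and 0.40 (SE 0.21). Gmnn encodes geminin, which blocks Cdt1 after replication has begun, and its log2 ratio was 0.42 (SE 0.18). Cdc6 went from 787 to 1285 in the authors' deposited table, the second largest log2 ratio of the 44, with an adjusted p of 0.133.

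CDC45 and the GINS complex turn MCM into an active helicase. Gins1 and Gins2 had log2 ratios of 0.13 (SE 0.23) and 0.08 (SE 0.13), and Cdc45, the lowest in level with 116 in controls and 159 in mutants in the authors' deposited table, had 0.45 (SE 0.19). Among genes of DNA synthesis, the polymerase alpha subunit Pola1 had 0.41 (SE 0.18), the primase subunit Prim1 0.14 (SE 0.17), the clamp loader subunit Rfc4 0.38 (SE 0.16) and the sliding clamp Pcna 0.28 (SE 0.13). Uhrf1, which carries DNA methylation onto the new strand, stood at 2497 in controls and 3573 in mutants in the authors' deposited table, a log2 ratio of 0.52 (SE 0.17). The E cyclins, which open S phase with CDK2, had log2 ratios of 0.46 (SE 0.19) for Ccne1 and 0.44 (SE 0.16) for Ccne2. The 4 S-phase genes without an unadjusted p under 0.05 were Gins1, Gins2, Cdt1 and Prim1.

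Among mitotic genes the smallest adjusted p belonged to Birc5, which encodes survivin, a part of the chromosomal passenger complex. Its level was 2029 in controls and 2686 in mutants in the authors' deposited table, a log2 ratio of 0.40 (SE 0.14). Aurka, the centrosome kinase, had the largest mitotic log2 ratio, 0.53 (SE 0.19), with levels of 1543 and 2227 and, by the authors' deposited table, an adjusted p of 0.0982. Tpx2, which activates Aurora A on the spindle, stood at 1797 and 2541 in the authors' deposited table, a log2 ratio of 0.50 (SE 0.18). Aurkb, the kinase of the passenger complex, and Plk1 had log2 ratios of 0.39 (SE 0.19) and 0.44 (SE 0.21).

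The spindle checkpoint kinase Bub1 stood at 835 in controls and 1151 in mutants in the authors' deposited table, a log2 ratio of 0.46 (SE 0.17) with an adjusted p of 0.116. Its partner Bub1b had 0.51 (SE 0.25). Cdc20, the activator of the anaphase-promoting complex that the checkpoint holds back, stood at 1541 and 2039 in the authors' deposited table, a log2 ratio of 0.40 (SE 0.16). Ube2c, the ubiquitin-conjugating enzyme of that complex, had 0.27 (SE 0.17). Mitotic cyclins and their kinase ran from 0.22 for Ccnb2 to 0.52 for Ccnb1, with Ccna2 at 0.28 and Cdk1 at 0.29. The spindle and midbody genes Kif11, Kif23, Nusap1 and Prc1 had log2 ratios of 0.36, 0.28, 0.42 and 0.40.

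The smallest log2 ratios of the mitotic class belonged to 4 genes with long transcripts. They were 0.0048 (SE 0.20) for the kinetochore motor Cenpe, 0.06 (SE 0.17) for Cenpf, 0.08 (SE 0.19) for the proliferation marker Mki67 and 0.19 (SE 0.15) for the topoisomerase Top2a. Mki67 stood at 3165 in controls and 3337 in mutants in the authors' deposited table, with an adjusted p of 0.872. Gins2, at 0.08, was the S-phase gene with the smallest log2 ratio.

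The ratio rose with level over all genes of this comparison, and these genes lie at high levels. With the tested genes in 4 equal bins by level, the highest bin held 35 of the 44, its median log2 ratio was 0.10 and 67.4% of its genes were positive, while in the lowest bin the median was -0.23 and 32.3% were positive. Less the median of the gene's own bin, the median log2 ratio was 0.38 over the S-phase genes and 0.30 over the mitotic genes. Marker genes of other cell types also moved at this stage. Of 11 pericyte markers tested 5 fell (Abcc9, Cspg4, Kcnj8, Ndufa4l2 and Rgs5) and 2 had positive log2 ratios, and their summed level in the authors' deposited table was 14538 in controls and 11588 in mutants. Of 11 myeloid markers 3 were called lower, with summed levels of 2524 and 1282. All 11 had negative log2 ratios, with a median of -1.03, and 10 had an unadjusted p under 0.05. Of 9 endothelial markers tested 1 was called lower, with summed levels of 1250 and 667. All 9 had negative log2 ratios, with a median of -0.97, and 5 had an unadjusted p under 0.05. Of 10 fibroblast and meningeal markers 4 fell and 1 rose, with summed levels of 101081 and 77254. Of 6 neural progenitor markers tested 1 fell (2395 and 2024 summed). Called were 0 of 6 neuron markers tested (4126 and 4218) and 0 of 5 erythroid markers tested (132 and 60.9). All 5 erythroid markers nonetheless had negative log2 ratios, with a median of -1.09. No listed marker was at 0 in a group, and the part of these cells in the ratios of the 44 genes was not tested.

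**Figure D2:**
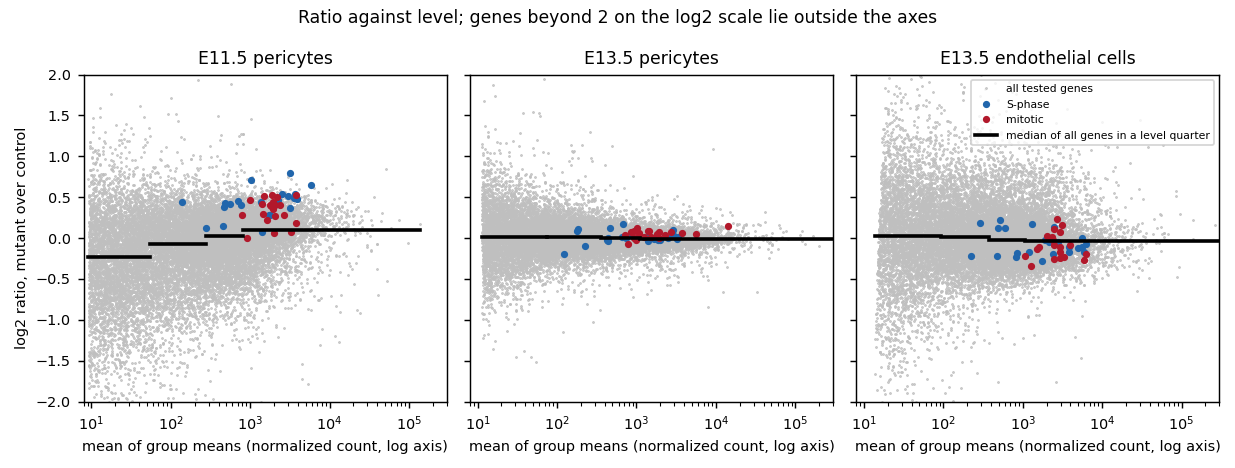
Log2 ratio of mutant over control against the mean of both group means (log axis) for all tested genes in grey, S-phase genes in blue and mitotic genes in red, with a black line for the median of all genes in each of 4 bins by level. In E11.5 pericytes the line climbs from -0.23 to 0.10 and the coloured points lie above it for most genes, while in the other comparisons it stays near 0.

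Other genes of the same processes, from lists that share no gene with the 44, lay in the same direction in E11.5 pericytes. Of 39 other replication genes 36 had a positive log2 ratio, 2 rose and 0 fell, with a median of 0.31. The 2 were Asf1b, a histone chaperone of the replication fork (1310.1 in controls and 1970.3 in mutants in the authors' deposited table, log2 ratio 0.59, SE 0.16, adjusted p = 0.0156), and Orc1, the subunit of the origin recognition complex (169 and 305, log2 ratio 0.85, SE 0.24, adjusted p = 0.0181). Of 45 other mitosis genes 44 had a positive log2 ratio, 2 rose and 0 fell, with a median of 0.32. These were Cdca8, another passenger complex subunit (log2 ratio 0.46, SE 0.14, adjusted p = 0.0426), and the kinase Melk (log2 ratio 0.59, SE 0.18, adjusted p = 0.0440), by the authors' deposited table. With equal summed means the adjusted p of Cdca8 and Melk was 0.0689 and 0.0626. Just outside lay Cdca5 (adjusted p = 0.0518) and Mcm10 (adjusted p = 0.0618), by the authors' deposited table.

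In the same cells 0 of 19 genes of the E2F, RB, MYB and FOXM1 regulators were called by DESeq2, 1 had an unadjusted p under 0.05, and the median log2 ratio was -0.09. That gene was E2f7, a repressor that E2F itself induces, with a log2 ratio of 0.52 (SE 0.25) and, by the authors' deposited table, an adjusted p of 0.238. Of 11 G1 cyclins and kinases 0 were called and 1 had an unadjusted p under 0.05, Cks1b, with a log2 ratio of 0.36 (SE 0.16). Of 14 p53 target genes 0 were called and 6 had an unadjusted p under 0.05, with a median log2 ratio of 0.01.

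Of 5 CDK inhibitor genes tested 2 fell and 0 rose. Cdkn1c, which encodes p57, fell from 6809 to 2067 in the authors' deposited table, a log2 ratio of -1.72 (SE 0.34) with an adjusted p of 0.00022. Cdkn2c, which encodes p18, fell from 30.5 to 8.74 in the authors' deposited table, a log2 ratio of -1.80 (SE 0.47) with an adjusted p of 0.0108. Cdkn1a, which encodes p21 and is also on the p53 list, stood at 233 in controls and 114 in mutants in the authors' deposited table, with an adjusted p of 0.0650. Cdkn2d, which encodes p19, had a log2 ratio of 0.15 (SE 0.13) and was not called.

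**Figure D3:**
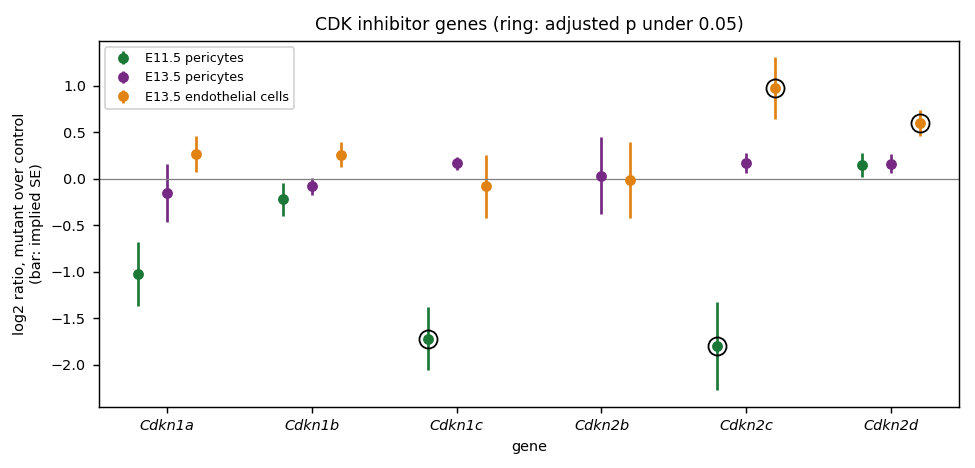
Log2 ratio of mutant over control for the CDK inhibitor genes tested in each comparison, with bars for the implied SE and rings for an adjusted p under 0.05. Cdkn1c and Cdkn2c lie below -1.7 in E11.5 pericytes and slightly above 0 in E13.5 pericytes, and Cdkn2c and Cdkn2d are ringed above 0 in endothelial cells.

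At E13.5 the pericytes of mutants and controls held nearly the same levels of the 44 genes. Called were 0 of 23 S-phase and 0 of 21 mitotic genes by DESeq2, against 0.388% of all genes, and 1 and 0 had an unadjusted p under 0.05, against 4.06% of all genes. The median log2 ratio was 0.0019 over the S-phase genes, 12 of which were positive, and 0.05 over the mitotic genes, 19 of which were positive. Over all genes 50.4% were positive, and of the called genes 57.7% were higher in mutants, or 69.8% with equal summed means. Ratios in the authors' deposited table ran from 0.870 for Cdc45 to 1.13 for Pola1. The implied SE were small, with a median of 0.08 over the 44 genes, and the 95% intervals of all 44 ratios together spanned 0.710 to 1.29.

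Pola1, the gene with the unadjusted p under 0.05, stood at 631 in controls and 713 in mutants in the authors' deposited table, a log2 ratio of 0.17 (SE 0.08) with an adjusted p of 1.00. It is the X-linked gene of the 44, and Xist differed between these groups, as given above. The next smallest p among S-phase genes belonged to Uhrf1 (2777 and 2968), Cdc45 (130.4 and 113), Ccne2 (449 and 490.1) and Gins1 (178 and 192), levels of controls and mutants in the authors' deposited table. Their log2 ratios were 0.10, -0.20, 0.13 and 0.11, each within 2 SE of 0. Among mitotic genes the smallest p belonged to Aurkb (986 and 1075), Mki67 (13482 and 14891), Bub1b (1339.7 and 1423), Ccna2 (2645 and 2786) and Bub1 (812 and 771) in the authors' deposited table. Their log2 ratios were 0.12, 0.14, 0.09, 0.08 and -0.07.

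The ratios of the MCM subunits lay, in the authors' deposited table at this stage, between 0.984 for Mcm3 and 1.02 for Mcm4, with SE of 0.05 to 0.07 on the log2 scale. Fen1 and Rrm1, called at E11.5, had log2 ratios of 0.06 (SE 0.08) and 0.02 (SE 0.06). Fen1 stood at 851 in controls and 884 in mutants, and Rrm1 at 3287 and 3329, in the authors' deposited table. None of the genes on the 6 lists of other replication, other mitosis, regulator, G1, inhibitor and p53 target genes was called by DESeq2 in these cells. At an unadjusted p under 0.05 the counts on those lists were 0, 0, 2, 0, 1 and 1. Cdkn1c stood at 22837 in controls and 25660.0 in mutants in the authors' deposited table, a log2 ratio of 0.17 (SE 0.07) with an adjusted p of 0.875. Of 7 erythroid markers tested 0 were called, all 7 were positive, and their summed level was 487 in controls and 2091 in mutants. Of 11 pericyte markers tested 1 rose (Cox4i2) and 1 fell (Rgs5), and of 10 endothelial markers tested 1 fell (Erg). Of the fibroblast, neural progenitor, neuron and myeloid markers, 0 were called.

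The difference between the stages was tested gene by gene as the log2 ratio at E13.5 minus that at E11.5. It was past the threshold in 0 of 44 genes, against 1.43% of the 18267 genes with both values. It was negative for all 23 S-phase genes, with a median of -0.42, and for 20 of 21 mitotic genes, with a median of -0.32. The exception was Mki67, at 0.07 (SE 0.21). Over all genes 49.4% were negative and the median was 0.0043. Without adjustment 14 S-phase and 6 mitotic genes had p under 0.05 in this normal test, against 13.3% of all genes. The largest differences among those with the smallest p were -0.74 (SE 0.24) for Fen1, -0.52 (SE 0.18) for Rrm1 and -0.67 (SE 0.23) for Rrm2, with Benjamini-Hochberg adjusted p of 0.0820, 0.122 and 0.123 over all genes. Among mitotic genes they were -0.54 (SE 0.19) for Bub1, -0.39 (SE 0.16) for Birc5 and -0.43 (SE 0.19) for Tpx2, with adjusted p of 0.150, 0.230 and 0.295. A difference between the stages in any single one of the 44 genes was therefore not shown. The signs also depended on the scale, as 4 of the 44 differences were positive with summed means set equal. Sex and genotype cannot be told apart in the E13.5 pericytes, as given above, and this limit holds for every difference between the stages.

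For 2 inhibitor genes the difference passed the threshold. It was 1.89 (SE 0.35) for Cdkn1c, with an adjusted p of 0.000171, and 1.97 (SE 0.48) for Cdkn2c, with an adjusted p of 0.0117. All 5 CDK inhibitor genes tested at both stages had a positive difference, with a median of 0.87.

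The levels themselves differed between stages in controls, described here without a test because the tables were normalized separately. Scaled levels are group means per 1000000 of the table's summed means. The S-phase genes together had a scaled level of 2411 in E11.5 control pericytes, 1188 in E13.5 control pericytes and 2749 in E13.5 control endothelial cells. The mitotic genes together had 2444, 1852 and 2893. The median S-phase gene stood at the 89.7th, 73.7th and 88.4th percentile of control levels, and the median mitotic gene at the 90.4th, 81.8th and 91.7th. Rrm2 had a scaled level of 298 in E11.5 pericytes, 66.8 in E13.5 pericytes and 295 in endothelial cells, and Fen1 at 150.2, 33.5 and 267. Both were thus low in E13.5 pericytes and alike or higher in endothelial cells of that stage.

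**Figure D4:**
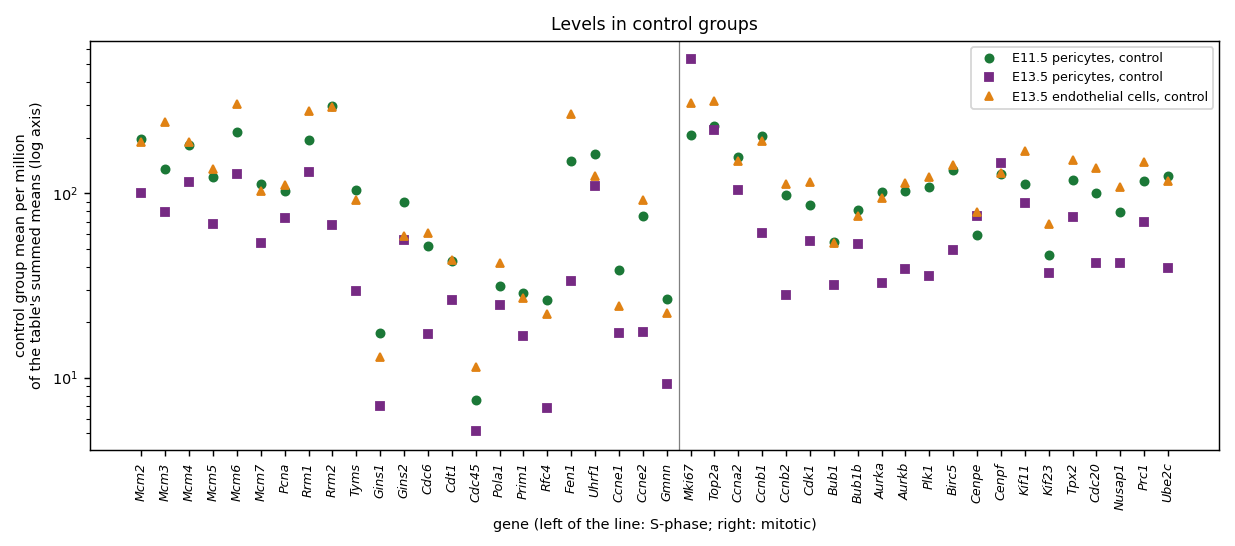
Level of each gene in the 3 control groups, as the group mean per 1000000 of the table's summed means (log axis), with S-phase genes left of the line and mitotic genes right of it. Squares for E13.5 pericytes lie lowest for most genes, and Mki67, at 531 against 207 at E11.5, is among the exceptions.

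A few mitotic genes went the other way in level. Mki67 had a scaled level of 207 in E11.5 and 531 in E13.5 control pericytes, Cenpe at 59.6 and 75.2, and Cenpf at 126 and 146. These are the 3 longest transcripts of the 44, from 7910 to 11130 bases of exon in the GENCODE M21 annotation. Across the 44 genes the ratio of E13.5 to E11.5 level rose with exonic length, with a Spearman correlation of 0.61 (n = 44). The correlation was 0.85 over the 21 mitotic genes and 0.31 over the S-phase genes. Across all 17813 genes with a length it was 0.35, and the median ratio was 0.622 in the shortest of 4 length bins and 1.23 in the longest. The points of each correlation share the same libraries.

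Per kilobase of exon, the control level in E11.5 pericytes was highest for Rrm2 (2079), Ccnb1 (1249) and Pcna (1034) and lowest for Cdc45 (54.3), Pola1 (89.6) and Cenpe (115), by the authors' deposited means. In E13.5 pericytes it was highest for Mki67 (1340.0), Pcna (1227) and Top2a (1067). In endothelial cells it was highest for Rrm2 (2832), Fen1 (2327) and Mcm3 (1694). Pseudogenes named for Ccnb1, Ccnb2, Pcna and Tyms are annotated, and how the authors' counting treated reads shared with them is unknown here, so those 4 levels are uncertain.

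In endothelial cells at E13.5 none of the 44 genes was called, and most lay slightly lower in mutants. Called were 0 of 23 S-phase and 0 of 21 mitotic genes by DESeq2, against 7.3% of all genes, and 3 and 2 had an unadjusted p under 0.05, against 20.0% of all genes. The log2 ratio was negative for 17 of 23 S-phase genes (median -0.10) and for 15 of 21 mitotic genes (median -0.10), while 48.3% of all genes were positive and their median was -0.01. Nearest the threshold lay Ccne2 and Kif23, the motor that bundles the midzone for cytokinesis. Ccne2 stood at 1937 in controls and 1596 in mutants in the authors' deposited table, a log2 ratio of -0.28 (SE 0.10) with an adjusted p of 0.0538. Kif23 stood at 1433 and 1134 in the authors' deposited table, a log2 ratio of -0.34 (SE 0.12) with an adjusted p of 0.0547.

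Other genes with the smallest p of their class were Rrm2 (6210.4 in controls and 5506 in mutants), Pola1 (886 and 756), Uhrf1 (2609.7 and 2276) and Gmnn (473 and 553) in the authors' deposited table. Their log2 ratios were -0.17 (SE 0.08), -0.23 (SE 0.14), -0.20 (SE 0.13) and 0.22 (SE 0.11). Among mitotic genes they were Tpx2 (3181 and 2686), Mki67 (6460.3 and 5371), Cenpf (2723 and 2281) and Kif11 (3569 and 3047) in the authors' deposited table. Their log2 ratios were -0.24 (SE 0.11), -0.27 (SE 0.14), -0.26 (SE 0.14) and -0.23 (SE 0.13). All 6 MCM subunits had negative log2 ratios, from -0.17 for Mcm4 to -0.04 for Mcm7, and both genes of the anaphase-promoting complex, Cdc20 and Ube2c, had positive ones, 0.08 and 0.24.

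The scale mattered for these counts. The summed means of the 2 groups differed by 0.13 on the log2 scale, and with both set equal, log2 ratios fell by that amount. Then 8 of the 44 genes were called lower (Rrm2, Ccne2, Mki67, Ccna2, Bub1b, Kif11, Kif23 and Tpx2). Of all 18132 genes 2199 were called in either direction. Of the 44, 6 were positive, and the median log2 ratio of all genes was -0.14. The share of called genes that were higher in mutants was 70.0% by the authors' scale and 28.8% by equal sums over all genes. The erythroid markers stood at a summed 64016 in controls and 1716420 in mutants in the authors' deposited table, and 9 of 10 rose. With sums set equal without those 10 genes, the shift was -0.02 and 1337 of all genes were called. Among the 44 genes 2 were called, Ccne2 and Kif23, both lower, and 11 were positive. Of 11 myeloid markers 3 rose, with summed levels of 13414 and 23176, and of 12 endothelial markers 1 fell (Kdr), with 152736 and 131696. All 11 myeloid markers had positive log2 ratios, and of the endothelial markers 9 were negative and 3 positive. Of the pericyte, fibroblast, neural progenitor and neuron markers 0 were called. The part of these cells in the ratios of the 44 genes was not tested.

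The log2 ratio in endothelial cells tended to fall with exonic length, with exceptions such as Cdk1 (4466 bases, 0.11) and Ccne1 (2000 bases, -0.22). Across the 44 genes the Spearman correlation of log2 ratio and exonic length was -0.51 (n = 44). Across all 17670 genes with a length it was -0.43. The 6 shortest genes, Gins1, Gmnn, Rfc4, Pcna, Ccnb2 and Prim1 (1087 to 1590 bases), were chosen after their values were seen. All 6 had positive log2 ratios, with a median of 0.13. The 6 longest, Cenpf, Mki67, Cenpe, Pola1, Top2a and Kif11 (4819 to 11130 bases), were chosen likewise and all had negative ones, with a median of -0.23. The medians of all genes in 4 length bins, from shortest to longest, were 0.22, 0.03, -0.09 and -0.18. In E13.5 pericytes the correlation was 0.21 across the 44 genes and 0.02 across all genes, and in E11.5 pericytes it was -0.08 and -0.18. Within E11.5 pericytes it was 0.36 over the S-phase genes and -0.45 over the mitotic genes. The part of length in the ratios was not tested.

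**Figure D5:**
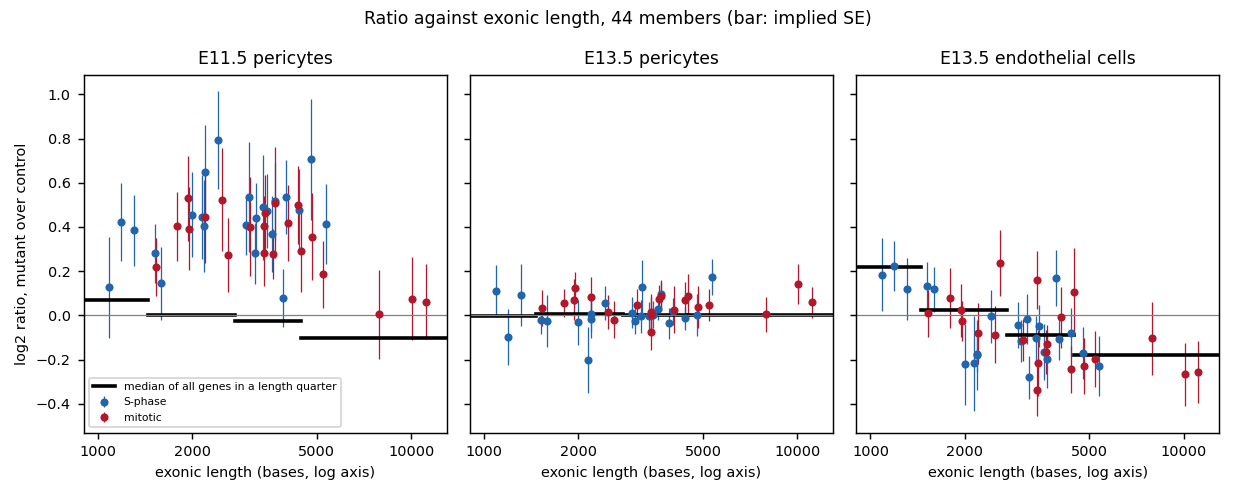
Log2 ratio of mutant over control against exonic length (log axis) for the 44 genes, S-phase in blue and mitotic in red with bars for the implied SE, and a black line for the median of all tested genes in each of 4 length bins. In endothelial cells both the line, from 0.22 to -0.18, and the points descend with length, while in E13.5 pericytes the line is flat.

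The wider lists in endothelial cells held a few called genes, against a background of 5.11% of all genes called higher and 2.19% lower. Of 39 other replication genes 1 fell, Pole, the catalytic subunit of leading-strand polymerase epsilon, with a log2 ratio of -0.55 (SE 0.19) and, by the authors' deposited table, an adjusted p of 0.0485. Of 45 other mitosis genes 1 fell, the chromokinesin Kif4, with a log2 ratio of -0.31 (SE 0.10) and, by the authors' deposited table, an adjusted p of 0.0293. Among the regulators 1 of 19 fell, E2f7, from 563 to 355 in the authors' deposited table (log2 ratio -0.66, SE 0.18, adjusted p = 0.00822). Of the 11 G1 genes 1 fell, Skp2, part of the ligase that degrades p27 (log2 ratio -0.36, SE 0.09, adjusted p = 0.00290), and 1 rose, Cks2 (log2 ratio 0.39, SE 0.10, adjusted p = 0.00486), by the authors' deposited table. Of 6 CDK inhibitor genes tested 2 rose, Cdkn2d (1652 in controls and 2500.2 in mutants, log2 ratio 0.60, SE 0.14, adjusted p = 0.00124) and Cdkn2c (36.1 and 70.9, log2 ratio 0.97, SE 0.33, adjusted p = 0.0484), by the authors' deposited table. Of 14 p53 targets 0 were called by DESeq2, and 2 had an unadjusted p under 0.05. The calls of Pole and Cdkn2c ended with adjustment over every gene with a p, at adjusted p of 0.0542 and 0.0541, and those of Cks2 and Cdkn2c with equal summed means, at 0.0686 and 0.0723.

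The difference between the cell types at E13.5 was tested as the log2 ratio in endothelial cells minus that in pericytes. It was past the threshold in 0 of 44 genes, against 3.94% of the 16920 genes with both values. It was negative for 17 of 23 S-phase genes, with a median of -0.06, and for 17 of 21 mitotic genes, with a median of -0.15, while 53.03% of all genes were negative and the median was -0.02. Without adjustment 3 and 6 had p under 0.05, against 15.6% of all genes. The smallest p belonged to Ccne2 at -0.41 (SE 0.16), Pola1 at -0.40 (SE 0.16) and Uhrf1 at -0.29 (SE 0.14) among S-phase genes, with Benjamini-Hochberg adjusted p of 0.131, 0.144 and 0.295. Among mitotic genes it belonged to Mki67 at -0.41 (SE 0.17), Kif23 at -0.34 (SE 0.14) and Tpx2 at -0.31 (SE 0.13), with adjusted p of 0.174, 0.197 and 0.203. With summed means set equal in both comparisons, 9 of the 44 genes were past the threshold, against 1224 of the 16920. All 9 were more negative in endothelial cells. With sums set equal without erythroid markers 0 of the 44 were past it, against 676 of all genes. Sex and genotype cannot be told apart in the pericytes of this difference, as given above.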

How the data were processed

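Libraries were made from messenger RNA of sorted cells and analysed with Partek, Bowtie2 and DESeq2 on mm10, per the submitters' processing notes, which give no versions. The annotation and the filters are not given in the sources used here. Per the file headers, each of 3 deposited tables holds per gene a p-value and FDR of the authors, the mutant-to-control ratio, a signed fold change (not used) and 1 least-squares mean per group. The authors' group means are a signal in normalized reads, with no stated scaling. The depth per library is therefore unknown and no counting interval is given. The authors' deposited FDR, printed as the adjusted p from DESeq2, equals a Benjamini-Hochberg adjustment over its 19301, 20084 and 18132 genes.

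Deposited ratios were put on the log2 scale. The SE is the log2 ratio over the normal deviate that matches the two-sided p, a Wald assumption, and 95% intervals follow from it. Differences between tables were tested by a normal test with the squared SE of both tables added, adjusted over all genes with both values. The steps were run on simulated data. The simulation drew independent tables from a normal with the implied SE, so it could not check independence or the Wald assumption. The tables share no libraries by the labels. Pericytes and endothelial cells at E13.5 may have been sorted from the same embryos, which the labels do not state. The test of differences took the tables as independent. The labels do not say that samples came from separate litters, so the p-values reflect the spread among these samples, which may be technical. Python 3.11.15, pandas 2.3.3, scipy 1.17.1 and matplotlib 3.10.9 were used, with lengths from GENCODE M21 and promoters from RefSeq.

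The 44 genes, the lists and the tests were chosen with earlier results of these data known. Given in full are called members, the 5 members of each class with the smallest p in a comparison, the members with the 3 smallest p of each difference, and, of other lists, called genes and the 3 with the smallest p. Alternatives tried were a threshold of 0.1, no filter on low values, a mean of at least 10, equal summed means, levels above the table median and a shorter promoter window. Added after seeing the data were equal sums without erythroid markers, a rescaled spread and medians less that of genes at similar level.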

Additional observations from a re-analysis of the deposited data

Results flagged for a closer look

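The mutant-to-control log2 ratio differed between stages or cell types, by the difference test, for 5 genes of the other cell cycle lists. Over all genes, 262 passed the test between stages and 666 that between cell types. Both tests use the E13.5 pericyte comparison, in which the sex of the embryos and the genotype cannot be told apart. The difference at E13.5 minus E11.5 in pericytes was 1.89 for Cdkn1c and 1.97 for Cdkn2c on the log2 scale. Cdkn2c lay in the lowest bin by level at E11.5, as given above. The difference in endothelial cells minus pericytes at E13.5 was -0.80 for E2f7, -0.65 for Pole and -0.38 for Skp2, with adjusted p of 0.00473, 0.0420 and 0.0162. In E13.5 pericytes those 3 genes had log2 ratios of 0.13, 0.10 and 0.02, and none was called there.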

How the results depend on the processing

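No paired analysis was possible because the tables hold group means and no values per library, and leaving out each replicate was not run for the same reason. Each median log2 ratio of a class moved by less than the median SE under the alternatives run, except the S-phase median in endothelial cells. It was -0.23 with equal summed means. The mitotic median there moved by the same amount, also to -0.23, and stayed inside only because its median SE was larger (0.13 against 0.11). At a threshold of 0.1 the calls in E11.5 pericytes numbered 1139 (10 of the 44), the 44 genes called in endothelial cells numbered 2, and the differences between stages numbered 447 (1 of the 44, Fen1). With equal summed means 1 of the 44 was called in E11.5 pericytes (Fen1), also without erythroid markers, and Rrm1 had an adjusted p of 0.0655 in both. In endothelial cells equal sums gave 2199 calls (8 of the 44), and 1337 (2 of the 44) without erythroid markers. Differences between stages then numbered 445 with either sum, and those between cell types 1224 (9 of the 44) with all genes summed. The share of called genes higher in mutants went from 57.7% to 69.8% in E13.5 pericytes and from 70.0% to 28.8% in endothelial cells with equal sums. Equal sums shifted the median of all genes by -0.13 on the log2 scale in endothelial cells, and by -0.04 and 0.02 in E11.5 and E13.5 pericytes, and 43 of the 44 genes stayed positive at E11.5.

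The median test statistic of all genes was 1.51, 0.864 and 1.48 times that of a standard normal in E11.5 pericytes, E13.5 pericytes and endothelial cells. With the spread rescaled by those factors the calls numbered 5 (0 of the 44), 142 (0 of the 44) and 49 (0 of the 44), the differences between stages 2 and those between cell types 15. All 20 gene results followed across the alternatives lost their call there, including Fen1 (adjusted p = 0.981), Rrm1 (0.995) and Cdkn1c (0.372), and the cause was not tested. No class median and none of those genes changed sign under an alternative run, while the majority of the endothelial calls went from higher to lower with equal sums, as given above. Of 110 values of those 20 results under an alternative, 77 kept their call and 33 lost it. The looser threshold was among these alternatives for each result, and a called result cannot lose its call there. Those values are part of the 77 and do not test the calls, so the tally overstates how well the calls hold. Among the main counts and medians 55 stayed close and 21 moved.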
